A study of Homo sapiens with 8 samples.

Results

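The genes examined were 10 genes of the NLRP3 inflammasome (NLRP3, PYCARD, CASP1, IL1B, IL18, GSDMD, NEK7, TXNIP, CARD8 and CARD16), of 62639 genes that the count table covered. A transcript was taken as a member when its Ensembl identifier belonged to 1 of these genes in GENCODE version 44. Of 254070 transcripts in the table, 114 belonged to them, and 50 of these 114 had a count in at least 1 library, against 56051 transcripts with a count in the whole table. The set was drawn up around a switch between isoforms of NLRP3 that had been seen in these libraries, so the share of each NLRP3 isoform and the NLRP3 level are given as a description, without a test.

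The study knocked down PTBP1, an RNA binding protein that controls splicing, in MOLM-13 cells, an established human acute myeloid leukemia (AML) line. Both groups were MOLM-13 cells that carried a lentiviral construct with a doxycycline (dox) inducible shRNA, constitutive mCherry and a dox-induced ΔLNGFR marker, and both received dox for 9 days. The groups were 4 biological replicates with 1 shRNA against PTBP1 (shPTBP1) and 4 with 1 scrambled shRNA (shSCR), so that loss of PTBP1 cannot be told apart from any other difference between cells with these 2 constructs. Nanopore sequencing of cDNA gave counts per annotated transcript. In these bulk samples a change in the kinds of cells present and a change in RNA per cell cannot be told apart.

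The inflammasome is a protein complex of innate immune cells. NLRP3 is the sensor: priming raises the cell's supply of NLRP3 and of the precursor of IL-1β, and a later trigger, often loss of potassium, lets NLRP3 assemble with the adaptor ASC (encoded by PYCARD) and the protease caspase-1 (CASP1). Caspase-1 then cleaves the cytokines IL-1β and IL-18 and the pore protein gasdermin D (GSDMD), which opens the cell membrane in pyroptosis, and monocytes and macrophages are the cells best known for it. PTBP1 binds pyrimidine-rich RNA, often next to exons that it keeps out of the mature transcript.

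The libraries held between 1528449 and 1613342 counts, so that 1 count was worth 0.62 to 0.654 CPM (counts per 1000000) and 6 of the 10 inflammasome genes, NLRP3 included, rest on fewer than 100 counts in every library. PTBP1 itself had 10, 15, 13 and 23 counts in shPTBP1 replicates 1 to 4 and 65, 90, 64 and 78 in shSCR replicates 1 to 4, without overlap (edgeR log2 fold change -2.26, SE 0.22, adjusted p = 7.18e-05). Of 10 myeloid and monocytic markers, 9 had at least 10 counts in all, while SPI1 had 1 count in all. The list summed to 6716 to 7690 counts in the shPTBP1 and 6664 to 7219 in the shSCR libraries, of which AZU1 held 5243 to 6345, and without AZU1 to 1288 to 1473 and 1238 to 1357. CD33 and LYZ had log2 fold changes of 0.26 and 0.33 (edgeR adjusted p = 0.187 and 0.103). PTPRC, MPO, CEBPA and AZU1 were at 0.07, 0.16, 0.10 and 0.01, while CSF3R and FCER1G were at -0.19 and -0.24. Of the 9 genes of that list that were tested, 1 was called by edgeR, beside 5.54% of the 7597 genes tested. It was CSF1R, the receptor for the growth factor M-CSF and a gene of monocytes. Its level was 7.19 ± 1.58 normalized CPM with shPTBP1 against 14.2 ± 2.32 with shSCR (SD, n = 4 each, log2 fold change -0.97, edgeR adjusted p = 0.0376). The part of these markers in the results for the inflammasome genes was not tested. Of 5 markers of AML lines with a rearranged KMT2A gene, 3 were tested and 0 called, with HOXA9, HOXA10 and MYB at -0.09, 0.14 and 0.20. FLT3 and MEIS1, below the filter on low counts, had 18 and 11 pooled counts with shPTBP1 and 35 and 11 with shSCR. Lymphoid, erythroid and epithelial marker lists summed to at most 43 counts in any library.

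NLRP3, the sensor of the complex, lies on the forward strand of chromosome 1 (GRCh38, 247416156 to 247449108). Of its 10 listed transcripts 7 had counts, and NLRP3-201 and NLRP3-205 held most of them. Both encode the same length of protein, 1034 codons, and they differ in the leader ahead of the start codon. In NLRP3-201 the start codon lies in an exon of 1025 bases (247418053 to 247419077). Within this stretch NLRP3-205 has a small exon of 62 bases (247418229 to 247418290), followed by an intron of 466 bases (247418291 to 247418756) and an exon of 321 bases that holds the start codon, whose first base is 247418801. The bases of the NLRP3-201 exon ahead of the small exon are intron in NLRP3-205. The leader is therefore 769 bases long in NLRP3-201 and 144 in NLRP3-205, a difference of 625 bases. It holds 10 upstream ATG triplets in NLRP3-201, of which 9 meet an in-frame stop codon before the start codon, against 2 in NLRP3-205, of which 0 do. Its GC content is 46% and 52.8%. NLRP3-205 also ends 291 bases farther downstream, so the annotation ties a longer leader to a shorter 3′ end.

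The 3 acceptor windows that separate these leaders are shown because the isoforms differ in which of them is joined, each with the last 27 bases of the intron and the first 3 of the exon, read from GRCh38 on the forward strand at chr1:247418026-247418055, chr1:247418202-247418231 and chr1:247418730-247418759. Capitals mark the letters TCTT, the DNA form of a short pyrimidine sequence that PTBP1 is known to bind, searched on the transcribed strand alone; it was chosen after the sequences had been seen.
NLRP3-201 leader exon: attcTCTTctgctttctcattttgtagatg
NLRP3-205 small exon: tttgtttgcatatttttccctccataggga
NLRP3-205 start-codon exon: tgccgtgttcactgcctggtaTCTTagtgt
TCTT stood in 39.1% of the 305148 annotated acceptor windows of this length. The window of the NLRP3-201 leader exon had 21 pyrimidines among its 27 intron bases, more than 85% of all annotated windows, with a longest pyrimidine run of 9. That of the small exon had 20 with a longest run of 11, and that of the start-codon exon had 17 with a longest run of 4, where the median of all windows was 18 with a longest run of 7. These matches describe the letters and are not binding sites shown by these data. The donor that closes the small exon, with the GT of the intron in capitals, was read at chr1:247418288-247418307.
NLRP3-205 small exon donor: ctgGTaagcatttggctaac

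NLRP3-201 had 48, 45, 48 and 50 counts in shPTBP1 replicates 1 to 4 and 24, 22, 14 and 13 in shSCR replicates 1 to 4. Its share of the NLRP3 counts was 70.6%, 63.4%, 60.0% and 69.4% in the shPTBP1 libraries and 38.7%, 34.9%, 32.6% and 27.7% in the shSCR libraries. Every shPTBP1 library was above every shSCR library, at 65.9% ± 5.02 against 33.5% ± 4.62 (SD, n = 4 each), 32.4 percentage points apart. NLRP3-205 moved the other way, with 14, 21, 24 and 16 counts against 36, 36, 24 and 30. Its share was 20.6%, 29.6%, 30.0% and 22.2% with shPTBP1 and 58.1%, 57.1%, 55.8% and 63.8% with shSCR, or 25.6% ± 4.89 against 58.7% ± 3.53, a difference of -33.1 points. The isoform holding the larger share was thus NLRP3-205 in all 4 shSCR libraries and NLRP3-201 in all 4 shPTBP1 libraries.

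**Figure D1:**
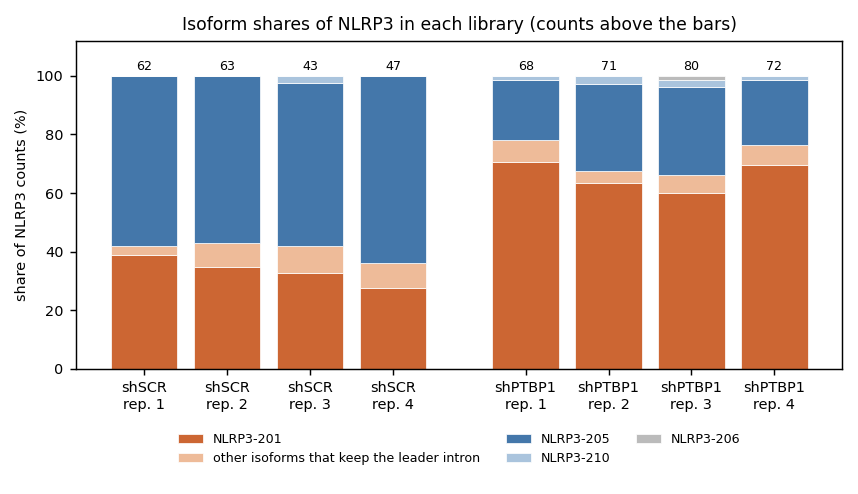
Share of the NLRP3 counts in percent held by each NLRP3 isoform, as stacked bars for the 4 shSCR and 4 shPTBP1 libraries, with the NLRP3 count above each bar. The NLRP3-201 segments hold 27.7 to 38.7% with shSCR and 60.0 to 70.6% with shPTBP1, and the NLRP3-205 segments 55.8 to 63.8% and 20.6 to 30.0%.

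In level, NLRP3-201 stood at 30.6 ± 1.05 normalized CPM with shPTBP1 and 11.5 ± 3.20 with shSCR, a ratio of 2.66. NLRP3-205 stood at 12.0 ± 3.16 against 19.8 ± 3.10, a ratio of 0.607, with ranges of 8.75 to 15.6 and 15.8 to 22.6 normalized CPM that lay close to each other. The difference in shares therefore held both a higher level of the isoform with the long leader and a lower level of the one with the spliced leader. For NLRP3 as a whole the counts were 68, 71, 80 and 72 with shPTBP1 and 62, 63, 43 and 47 with shSCR. The normalized levels were 42.5, 46.3, 52.0 and 45.5 CPM against 37.6, 39.6, 28.3 and 29.8 CPM. The groups did not overlap, at 46.6 ± 3.98 against 33.8 ± 5.62 CPM, a log2 fold change of 0.46 that ranged from 0.42 to 0.49 over the other settings and from 0.38 to 0.54 when 1 library was left out.

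Grouped by structure, the isoforms that keep the 466-base leader intron as exon (NLRP3-201, NLRP3-202, NLRP3-203 and NLRP3-204) held 209 of 291 NLRP3 counts with shPTBP1 and 88 of 215 with shSCR. Their share per library was 77.9%, 67.6%, 66.3% and 76.4% against 41.9%, 42.9%, 41.9% and 36.2%, or 72.1% ± 5.97 against 40.7% ± 3.06. The shares of isoforms with the leader spliced (NLRP3-205 and NLRP3-210) were 27.6% ± 5.59 and 59.3% ± 3.06. Isoforms with the shorter 3′ end (NLRP3-201, NLRP3-202 and NLRP3-203) made up 69.6% ± 4.63 and 38.9% ± 1.87, close to the shares by leader. Among the isoforms with a count, NLRP3-204 alone joined the long leader to the longer 3′ end, with 3, 1, 1 and 2 counts against 1, 2, 1 and 0, and no isoform with the spliced leader had the shorter end. Counts per transcript hence cannot say whether the reads differed at the leader, at the 3′ end or at both.

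NLRP3 also has exons of its leucine-rich repeats (LRR), the part of the protein that binds NEK7, that can be left out. The 2 annotated alternative LRR exons are 171 bases each (247429585 to 247429755 and 247435970 to 247436140). The first was absent from isoforms with 8 counts in the shPTBP1 and 9 in the shSCR libraries, 2.77% ± 1.24 and 4.14% ± 3.21 of the NLRP3 counts. The second was absent from isoforms with 11 counts in each group, 3.73% ± 1.04 and 5.47% ± 2.99. These ranges overlapped, and so few counts could not show a difference of a few points. The acceptor window of the first had 21 pyrimidines of 27, as many as that of the NLRP3-201 leader exon. Its longest run was 10, with 1 match to TCTT. The window of the second had 15 pyrimidines, a longest run of 5 and 0 matches.

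Of the other 9 inflammasome genes, 8 passed the filter on low counts and were tested at gene level by edgeR, and IL1B did not pass. By edgeR, 0 of the 8 were called at an adjusted p under 0.05, beside 5.54% of the 7597 genes tested. At an unadjusted p under 0.05, 1 of the 8 passed, CARD16, beside 19.2% of all genes tested. DESeq2, limma-voom and limma-trend also called 0. The groups did not overlap for 0 of the 8, beside 12.7% of all genes tested. Their median log2 fold change was 0.06, and that of all genes was near 0. Nothing about the list is read from these shares, since the genes were listed with results of the same contrast known.

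PYCARD encodes ASC, the adaptor that links sensor and caspase. It stood at 370, 465, 418 and 401 normalized CPM in the shPTBP1 libraries and 386, 388, 414 and 460 in the shSCR libraries. The groups overlapped almost completely, with a log2 fold change of 0.01 (95% interval -0.17 to 0.18, edgeR adjusted p = 0.983), an interval that bounds the difference to either side of 0. PYCARD-201, the isoform of 195 codons, held 74.3%, 69.1%, 69.4% and 70.8% of the PYCARD counts with shPTBP1 and 75.8%, 75.2%, 74.7% and 74.4% with shSCR. The groups did not overlap, at 70.9% ± 2.40 against 75.0% ± 0.618. PYCARD-202, which lacks an exon of 57 bases between the pyrin and CARD domains and has 176 codons, held 24.0% ± 2.67 against 21.1% ± 0.887, with overlapping groups. PYCARD-204, annotated as a transcript with a retained intron, held 5.09% ± 0.828 against 3.88% ± 0.615, again without overlap.

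CASP1 encodes caspase-1, which cuts IL-1β, IL-18 and gasdermin D. Its levels were 83.1, 97.9, 76.7 and 77.8 normalized CPM with shPTBP1 and 91.0, 73.6, 79.0 and 72.9 with shSCR. The groups overlapped, with a log2 fold change of 0.08 (95% interval -0.15 to 0.32, edgeR adjusted p = 0.744). With 1 library left out it ranged from 0.00018, without shPTBP1 replicate 2, to 0.16, without shSCR replicate 1. CARD16, a CARD-only protein that resembles the first part of caspase-1 and is known as a regulator of its activation, stood at 57.5, 64.6, 57.9 and 52.5 normalized CPM against 40.7, 28.9, 54.7 and 49.4. The highest shSCR library was above the lowest shPTBP1 library, and edgeR gave a log2 fold change of 0.42 (SE 0.16, 95% interval 0.07 to 0.77, unadjusted p = 0.0215, adjusted p = 0.167). Without shSCR replicate 2, in which CARD16 had its lowest value, it was 0.27 (edgeR adjusted p = 0.306). CASP1-201 and CARD16-205, the isoforms with most counts of either gene, share 459 of 493 aligned bases (93.1%). The authors kept only reads above a mapping quality limit, and whether reads of either gene were counted on the other was not tested. With the counts of both genes added, the log2 fold change was 0.21 (edgeR adjusted p = 0.268).

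Among the CASP1 isoforms, CASP1-201 held 67.2% ± 5.64 of the counts with shPTBP1 and 65.2% ± 5.97 with shSCR, and CASP1-212, of the same 404 codons, held 16.7% ± 6.04 and 19.2% ± 4.23. CASP1-219, which lacks an exon of 63 bases, held 5.99% ± 2.02 and 5.67% ± 2.57, and CASP1-221 held 5.24% ± 1.42 and 6.44% ± 2.34. The ranges of the groups overlapped for each of the 4. CARD16-205 held at least 96.2% of the CARD16 counts in every library.

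**Figure D2:**
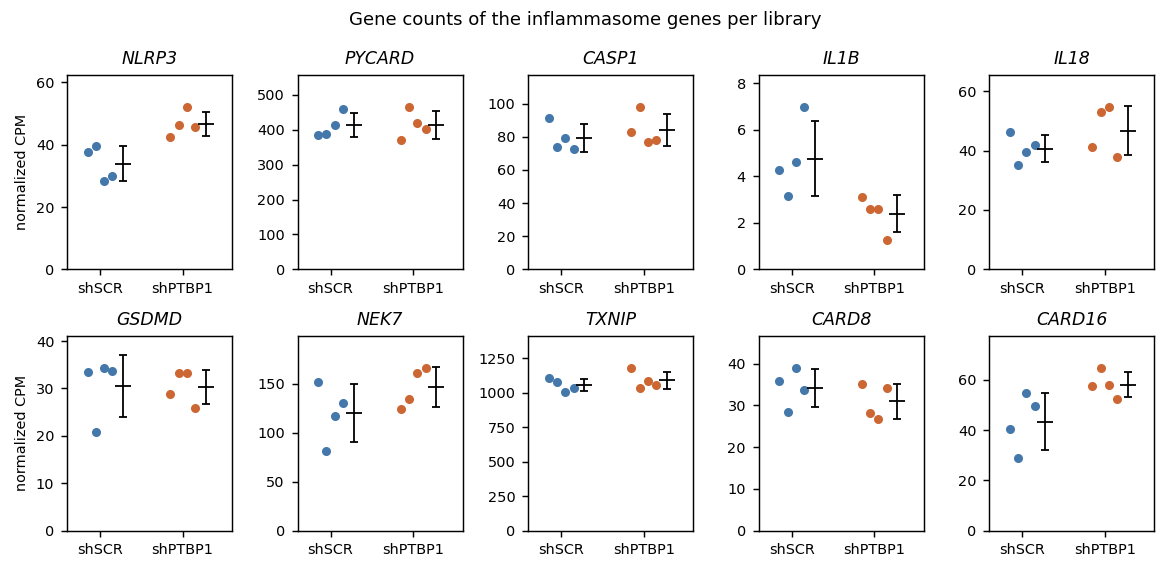
Gene level in normalized CPM for each of the 10 inflammasome genes, with a linear axis from 0 in each panel, points for the 4 shSCR and 4 shPTBP1 libraries, and the mean and SD beside them. The groups lie apart for NLRP3 (28.3 to 39.6 against 42.5 to 52.0) and for IL1B, whose values rest on 2 to 11 counts per library, and overlap for the other 8. They lay apart for 12.7% of the 7597 genes tested, among which IL1B was not.

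IL1B encodes the precursor of IL-1β, the cytokine most closely tied to the inflammasome. It had 5, 4, 4 and 2 counts in shPTBP1 replicates 1 to 4 and 7, 5, 7 and 11 in shSCR replicates 1 to 4, all on IL1B-201. The normalized levels did not overlap, but they rest on 15 and 30 pooled counts, a ratio of 0.507 with a 95% counting interval of 0.253 to 0.972 that covers counting error alone. Fitted with no filter on low counts, its log2 fold change was -0.95 (95% interval -1.99 to 0.08, edgeR adjusted p = 0.471). That fit did not call a difference, and its wide interval does not show that the groups were alike.

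IL18 encodes the other cytokine precursor that caspase-1 cuts. Its levels were 41.3, 52.9, 54.6 and 37.9 normalized CPM with shPTBP1 and 46.1, 35.2, 39.5 and 41.8 with shSCR. These overlapped, with a log2 fold change of 0.20 (95% interval -0.12 to 0.51, edgeR adjusted p = 0.511). It was 0.13 and 0.11 without shPTBP1 replicates 2 and 3, which had the higher levels. IL18-202, which lacks an exon of 12 bases, held 71.2%, 76.5%, 66.7% and 66.7% of the counts with shPTBP1 and 64.5%, 71.4%, 78.3% and 72.7% with shSCR. IL18-201, which has that exon and 193 codons in place of 189, held 27.7% ± 4.88 and 27.9% ± 5.15. The exon, on the reverse strand at chr11:112153592-112153603, and its acceptor window at chr11:112153601-112153630 are shown because this window had 24 pyrimidines of 27, more than 98.9% of all annotated windows, and 2 matches to TCTT, set in capitals in the window, while the capitals of the exon mark its whole length.
IL18-201 exon: CTGAAGATGATG
IL18-201 acceptor: ctgtttctcTCTTtttcccccTCTTagctg
The share of IL18-201 differed by -0.21 points between the groups (unadjusted p = 0.950 for its usage by edgeR). The acceptor windows of the exons absent from PYCARD-202 and CASP1-219 had 16 and 19 pyrimidines of 27, with 0 and 1 matches to TCTT.

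Usage was tested for 7 isoforms of the genes other than NLRP3, those of PYCARD, CASP1 and IL18 that passed the filter on low counts. By edgeR's diffSpliceDGE, 0 of the 7 were called (adjusted p under 0.05 and at least 10 points), beside 1.12% of the 5464 isoforms tested, and 0 had an unadjusted p under 0.05. limma's diffSplice also called 0. The groups did not overlap for PYCARD-201 and PYCARD-204, 2 of the 7, beside 10.7% of all isoforms tested. Their differences were -4.11 and 1.22 percentage points (unadjusted p = 0.450 and 0.123, edgeR adjusted p = 1 for both).

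**Figure D3:**
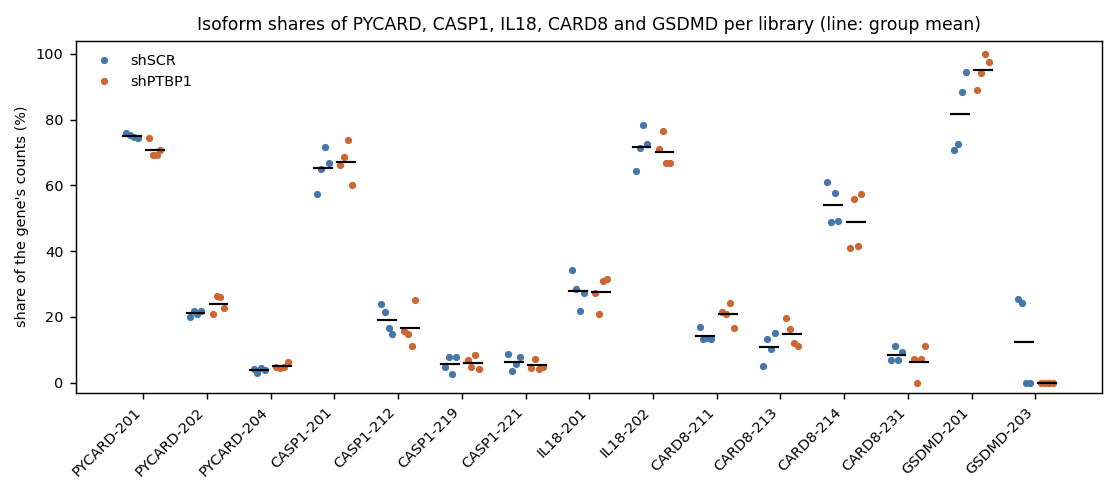
Share in percent of the counts of PYCARD, CASP1, IL18, CARD8 and GSDMD held by their isoforms, as points for the 4 shSCR and 4 shPTBP1 libraries with a line at the mean of each group. PYCARD-201 lies at 74.4 to 75.8% with shSCR and 69.1 to 74.3% with shPTBP1, and GSDMD-203 is at 0 in 6 of the 8 libraries.

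GSDMD encodes gasdermin D, the pore that caspase-1 sets free. Its levels were 28.8, 33.3, 33.2 and 25.9 normalized CPM with shPTBP1 and 33.4, 20.8, 34.2 and 33.6 with shSCR. The lowest value was that of shSCR replicate 2, the groups overlapped, and the log2 fold change was -0.01 (95% interval -0.39 to 0.37, edgeR adjusted p = 0.984). GSDMD-201, the full-length isoform, held 95.2% ± 4.71 of the counts with shPTBP1 and 81.6% ± 11.6 with shSCR. The wider spread with shSCR came with GSDMD-203, a short transcript annotated as lacking a stop codon, which had 14 and 8 counts in shSCR replicates 1 and 2 and 0 in the other 6 libraries. No usage test was made for GSDMD.

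NEK7 encodes the kinase that bridges NLRP3 subunits. It stood at 123.7, 134.4, 161.3 and 165.7 normalized CPM with shPTBP1 and 151.7, 81.1, 116.6 and 130.5 with shSCR, again with its lowest value in shSCR replicate 2. The groups overlapped, with a log2 fold change of 0.28 (95% interval -0.05 to 0.62, edgeR adjusted p = 0.347), and it lay between 0.14, without shSCR replicate 2, and 0.42 when 1 library was left out. NEK7-202 held at least 99.6% of the counts in every library.

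TXNIP encodes the thioredoxin-interacting protein, which binds thioredoxin and has been described as a partner of NLRP3. It stood at 1177, 1033, 1088 and 1059 normalized CPM with shPTBP1 and 1105, 1081, 1007 and 1033 with shSCR, all of it on TXNIP-204. The log2 fold change was 0.04, and its 95% interval, -0.08 to 0.17, is narrower than that of any other inflammasome gene tested (edgeR adjusted p = 0.750). CARD8, a sensor and regulator related to NLRP1, stood at 35.0, 28.1, 26.7 and 34.1 normalized CPM against 35.8, 28.3, 38.9 and 33.6, with a log2 fold change of -0.14 (95% interval -0.46 to 0.19, edgeR adjusted p = 0.682), and of -0.07 without shPTBP1 replicate 3 or shSCR replicate 3 and -0.22 without shSCR replicate 2. CARD8-214 and CARD8-211, which encode 70 codons each, held 48.9% ± 8.88 and 20.9% ± 3.18 of the CARD8 counts with shPTBP1, against 54.2% ± 6.13 and 14.3% ± 1.80 with shSCR. The full-length CARD8-213 and CARD8-231, of 537 codons, held 14.8% ± 3.92 and 6.39% ± 4.64 against 10.9% ± 4.39 and 8.53% ± 2.13.

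For 8 of the 10 genes, then, edgeR gave no call and an interval that bounds the difference, and a p that misses the threshold does not show that the groups were alike. The intervals of PYCARD, CASP1 and TXNIP lay within 0.32 of 0 on the log2 scale in either direction, while those of CARD16 and NEK7 reached 0.77 and 0.62 on the higher side.

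A further 108 genes were listed around the inflammasome by role, of which 91 had counts and 57 passed the filter. Of these 57 genes, edgeR called 2 lower and 0 higher after shPTBP1, beside 3.19% and 2.36% of all genes tested. At an unadjusted p under 0.05, 6 were lower and 2 higher, beside 10.1% and 9.1% of all genes tested, and the median log2 fold change was -0.08. The groups did not overlap for 3 of the 57, beside 12.7% of all genes tested. Among 16 listed decoys and inhibitors, 5 were tested and 1 was lower. That gene was TXN, which encodes thioredoxin, the redox protein that TXNIP binds. It had 291, 277, 334 and 307 counts with shPTBP1 and 658, 483, 587 and 643 with shSCR, without overlap. The normalized levels were 193.5 ± 16.9 against 374 ± 47.8 CPM (SD, n = 4 each), which edgeR put at -0.95 in log2 fold change (95% interval -1.16 to -0.74, SE 0.10, adjusted p = 9.38e-05). Its partner TXNIP did not pass the test, with the values given above. Of 23 listed modifiers of the NLRP3 protein, 18 were tested and 1, PPP2CA, was lower. It encodes the catalytic subunit of protein phosphatase 2A, an enzyme known to remove a phosphate that keeps NLRP3 inactive. PPP2CA stood at 74.4, 85.5, 85.8 and 133.4 normalized CPM with shPTBP1 and 145.7, 145.3, 130.4 and 152.1 with shSCR. The groups overlapped because of shPTBP1 replicate 4, and by edgeR its log2 fold change was -0.60 with an SE of 0.14 (adjusted p = 0.0300). The call was lost when any of 6 of the 8 libraries was left out, with adjusted p between 0.0606 and 0.108.

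**Figure D4:**
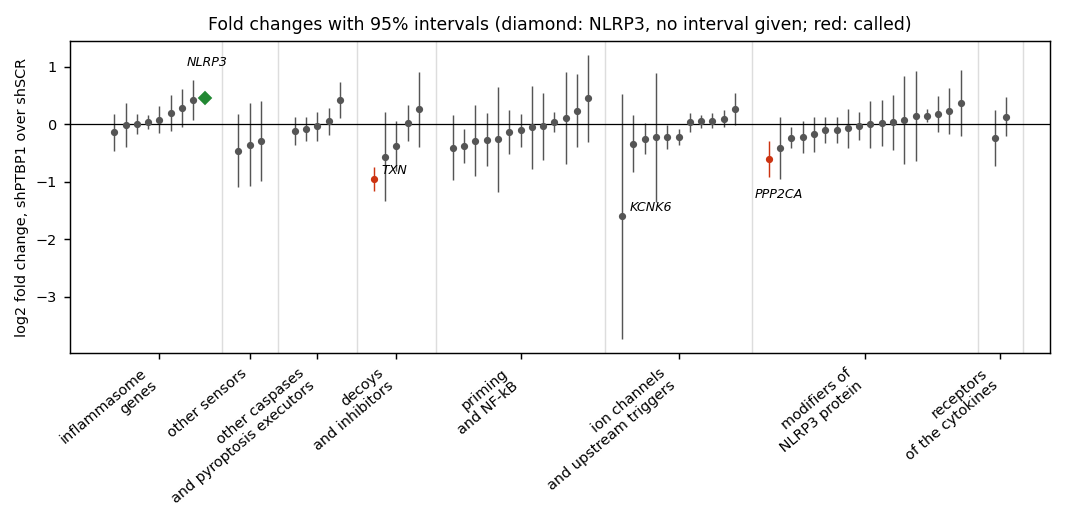
Log2 fold change, shPTBP1 over shSCR, of the tested inflammasome genes and of the other 57 tested genes by role, with 95% intervals as vertical lines. A diamond marks NLRP3, for which no interval is given, and TXN (-0.95) and PPP2CA (-0.60), called by edgeR, lie below 0.

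In the other lists no gene was called. For 17 other sensors, 3 were tested, and of these NLRX1 had a log2 fold change of -0.46 (95% interval -1.10 to 0.18) and IFI16 of -0.35 (edgeR adjusted p = 0.436 and 0.627). NLRX1 was at -0.79 without shPTBP1 replicate 1 and -0.29 without shSCR replicate 2, and IFI16 at -0.61, -0.11 and -0.16 without shPTBP1 replicate 2, shPTBP1 replicate 3 and shSCR replicate 2. NLRP1 and NLRP2 had 1 or 2 counts over the 8 libraries. Of 11 other caspases and executors of pyroptosis, 5 were tested, with CASP4 at -0.08. The groups did not overlap for 1 of the 5, CASP8, beside 12.7% of all genes tested. CASP8 stood at 32.9 ± 2.99 against 24.4 ± 2.52 normalized CPM, with a log2 fold change of 0.43 (unadjusted p = 0.0110, edgeR adjusted p = 0.112), and was singled out after its values were seen. Of 20 genes of priming and NF-kB, 13 were tested, and 1, IRAK3, had an unadjusted p under 0.05, beside 19.2% of all genes tested. MAP3K7 and IRAK3 had log2 fold changes of 0.04 and -0.38 (edgeR adjusted p = 0.849 and 0.137). Of 16 ion channels and upstream triggers, 11 were tested, and CTSB, which encodes the lysosomal protease cathepsin B and was likewise singled out after its values were seen, stood at 277 ± 11.8 against 322 ± 13.3 normalized CPM (log2 fold change -0.22, edgeR adjusted p = 0.0656), and was called lower with a mean of at least 50 counts (adjusted p = 0.0179) and by limma-trend (adjusted p = 0.0393); CLIC1 and VDAC1 were at 0.05 and 0.06. KCNK6, a potassium channel gene also singled out later, had 25 counts in shPTBP1 replicate 1 and 27, 18 and 33 in shSCR replicates 1, 2 and 4, and 0 in the other 4 libraries, so its fitted value has a wide interval. It was called lower by edgeR without shPTBP1 replicate 1 (adjusted p = 0.0470), a fit in which every shPTBP1 library was at 0. Of 5 receptor genes of the cytokines, 2 were tested, IL1RAP at 0.13 and SIGIRR at -0.23. The decoy IL1RN, an antagonist of the IL-1 receptor, was at -0.38 (edgeR adjusted p = 0.343) and SERPINB1, an inhibitor of inflammatory proteases, at 0.02. The chaperones HSP90AB1 and HSP90AA1, which stabilise NLRP3, were at 0.15 and -0.23 (edgeR adjusted p = 0.135 and 0.156).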

How the data were processed

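RNA from MOLM-13 cells was sequenced on a nanopore instrument after cDNA synthesis with PCR amplification. The authors aligned reads to hg38 with minimap2, kept those above a mapping quality limit and counted annotated transcripts with StringTie. The deposited counts are whole numbers without normalization. A second deposited table, named for TPM, holds CPM: each count divided by its library total and multiplied by 1000000, without division by length (largest difference 4.998e-07, tolerance 1e-06). Versions of those tools and the annotation release were not given in the sources used here. Every column had a sample.

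Identifiers without version were matched to GENCODE version 44 (252562 of 254070 transcripts, and the other 1508 held 0.0876 to 0.115% of counts and were left out of gene sums). Gene sums were tested with edgeR 4.0.16 (TMM, quasi-likelihood, filterByExpr with minimum count 10, 7597 genes, Benjamini-Hochberg adjusted p under 0.05), with the group as the only term. Isoform usage was tested with diffSpliceDGE over 5464 transcripts in 2163 genes, with a call where the mean share differed by at least 10 percentage points and the adjusted p was under 0.05. Normalized CPM are edgeR values after TMM scaling. Intervals are 95% intervals from the same fit. Shares are percentages of a gene's counts in a library. Splicing windows came from GENCODE exons on GRCh38. No libraries of a group agreed within counting noise, the squared differences being 2.12 to 3.94 times those of counting. The pairs with shSCR replicate 2 had the largest values, 3.94, 3.37 and 3.32, and the other pairs were at 2.12 to 2.99. Whether replicates were separate cultures was not tested. Labels call the replicates biological, and p-values set the difference between the groups against the spread among the 4 libraries within each group. Amplified cDNA molecules are not independent, so counting intervals cover counting error alone.

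The members and lists were chosen with earlier results of these data known. The genes named are the 10 members, their isoforms with a mean share of at least 5% in a group and at least 10 counts in all, the called genes of the other lists and otherwise the 2 per list with the highest mean count, and PTBP1 (1 gene that the rule named is not reported here); CASP8, CTSB, KCNK6, NLRP1, NLRP2, other NLRP3 isoforms and the marker genes named were added for a count or feature. Alternatives were DESeq2 1.42.0, its size factors in edgeR, no filter, a mean of at least 50 counts, limma-voom and limma-trend (limma 3.58.1, log2 of CPM plus 1), a replicate block, thinning to the smallest library, adding CASP1 and CARD16 counts, limma's diffSplice, other limits on isoforms, and leaving out each library. R 4.3.3 and Python 3.11.15 were used.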

Additional observations from a re-analysis of the deposited data

Results flagged for a closer look

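With 4 libraries per group, a library was singled out where its gap to the nearest other, as a share of the group's range, was above Dixon's 95% critical value, which chance passes in about 1 in 20 groups. Of 88 groups examined, 4 passed it. In the shSCR libraries, GSDMD was at 20.8 normalized CPM in replicate 2, where the others were at 33.4 to 34.2, and HSP90AA1 was at 841 normalized CPM in the same library, where the others were at 1.12e+03 to 1.15e+03. The CARD8-211 share was 16.9% in shSCR replicate 1, against 13.2 to 13.6% in the others. NLRX1 was at 14.4 normalized CPM in shPTBP1 replicate 1, against 6.53 to 7.59 in the others.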

How the results depend on the processing

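NLRP3 and its isoforms were left out of the counts of calls, since they chose the list. For the other inflammasome genes, 8 of which were tested in the main fit, the count of called genes stayed at 0 in each direction under every alternative run. That of their called isoforms also stayed at 0. The genes tested numbered 9 with no filter and 7 with a mean of at least 50 counts. Among the other listed genes, the count called higher was 1 with DESeq2 (HSP90AB1, log2 fold change 0.16, adjusted p = 0.0338), the count called lower was 3 with a mean of at least 50 counts and with limma-trend, CTSB joining TXN and PPP2CA, and with 1 library left out it ranged from 1 to 2, being 1 without shPTBP1 replicate 2 or 3 or shSCR replicate 1 or 4. Over the left-out libraries the log2 fold change of PTBP1 ranged from -2.52 to -2.09, the difference in the NLRP3-201 share from 30.5 to 34.3 points and that of NLRP3-205 from -34.6 to -31.4 points. The NLRP3 ranges are a description only, since the switch seen in these same libraries chose the list. Of 377 comparisons of named values, 352 kept direction and call, 17 turned direction near 0, 6 lost a call and 2 gained one. The 352 include the NLRP3 fold change under 8 settings and in 8 fits with 1 library left out. NLRP3 had no call to keep, so for it they describe direction alone. Directions turned for PYCARD with a mean of at least 50 counts (-0.0133) and with limma-trend (-0.0342), for GSDMD with limma-voom (0.0102) and for SERPINB1 with limma-trend (-0.00669). With 1 library left out the log2 fold changes ranged from -0.0565 to 0.0633 for PYCARD, -0.156 to 0.0569 for GSDMD, -0.0379 to 0.120 for SERPINB1, -0.000961 to 0.0832 for MAP3K7 and -0.355 to 0.0206 for SIGIRR. PPP2CA lost its call in 6 of these fits, and HSP90AA1 gained one without shSCR replicate 2 (-0.33, adjusted p = 0.00543). The cause was not tested. Over all genes, limma-trend called 272 lower and 129 higher, DESeq2 157 and 157, against 242 and 179, and the fit without shPTBP1 replicate 3 called 107 and 77. The labels tie libraries of the 2 groups by the replicate number alone. Over all genes tested, the deviations of such libraries from their group means had correlations of -0.03488 to 0.00916. At these depths such values cannot show whether the libraries shared an induction or preparation. With it as a replicate block 186 genes were lower and 137 higher, and PTBP1 had a log2 fold change of -2.27. In that fit 2 other listed genes were lower and 0 higher. With NLRP3 left out, 0 inflammasome genes and 0 of their isoforms were called. At these depths NLRP3 had 43 to 80 counts per library, GSDMD 33 to 55, CARD8 41 to 59 and IL1B 2 to 11, which limits the precision of their levels and isoform shares.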
